A study of Rattus norvegicus with 60 samples.

Results

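The step between postnatal day 14 (P14) and postnatal day 21 (P21) was followed in the prefrontal cortex of male rats of the line LR. LR and HR are selectively bred lines on a Sprague-Dawley background, and the series studies them for high or low behaviour of the anxiety and depression kind, without labels that say which line is which. The comparison set the 5 LR P21 samples against the 5 LR P14 samples, which are 10 of the 60 samples of the series, and the samples were chosen by their labels for line, region and age alone. Male rats of the other line (HR P21 and HR P14, 5 samples each) and LR males at postnatal day 7 (LR P7, 5 samples) are used beside them, and no group carried a treatment or a transgene. Each sample was 1 single-colour NimbleGen array hybridised with Cy3-labelled cDNA made from total RNA of dissected, frozen tissue. The protocol gives 5 male rats per line and names the amygdala as the dissected tissue for these samples too, so the region rests on what the labels call the source and the brain region. Arrays are not tied to animals, and p-values therefore measure the spread between these samples.

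In the rat the weeks before weaning are the time in which oligodendrocytes wrap cortical axons in myelin, in which parvalbumin interneurons acquire their fast-spiking properties, and in which astrocytes and microglia mature around the synapses being formed and removed. Myelin is built from abundant structural proteins such as myelin basic protein together with lipids, and oligodendrocytes also make enzymes and lipid carriers that serve it. Cortical interneurons are told apart by the proteins and peptides they make, among them parvalbumin, somatostatin, vasoactive intestinal peptide and neuropeptide Y. In whole tissue, a lower level from fewer cells of a type and one from less RNA per cell cannot be told apart.

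Values are normalized intensities on the deposited linear scale, and a difference is log2 of LR P21 over LR P14 with the standard error (SE) of a fit that pooled the spread of all 30 prefrontal arrays. Of 18564 rows, each a transcript accession, 441 (2.38%) were called (limma, Benjamini-Hochberg adjusted p under 0.05), of which 154 (0.83%) were higher and 287 (1.55%) lower in LR P21. With the 10 LR arrays alone 2034 rows (11%) were called, 1144 higher (6.16%) and 890 lower (4.79%). All 5 LR P21 arrays lay above all 5 LR P14 arrays in 4.2% of rows and below them in 4.26%, so 8.46% of rows had no overlap. The count in the pooled fit fell to 261, 103, 184, 219, 177 and 156 rows without array 8, 9, 10, 17, 18 and 20, in that order. Of the 43 named genes that were called, 15 stayed called whichever LR array was left out, among them Apod, Pvalb, Igfbp7, Rasl10a, Gsta1, Ntsr2, Aspa, Ppp1r15a, Eno1-ps1, Cyc1-ps1, Atp5mc1l2, Rpl37al3, Ralgdsl8 and Avp. The arrays of the HR line were less alike than those of LR, with a median correlation within the group of 0.846 to 0.925 per array at HR P21 and HR P14, against 0.919 to 0.953 at LR P21 and LR P14. No detection flags accompany the table. The 1 random control row lay between 45.6 and 54.6 over the arrays and the median row had a geometric mean of 74.0, so a gene whose means lie near these values is close to background.

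**Figure D1:**
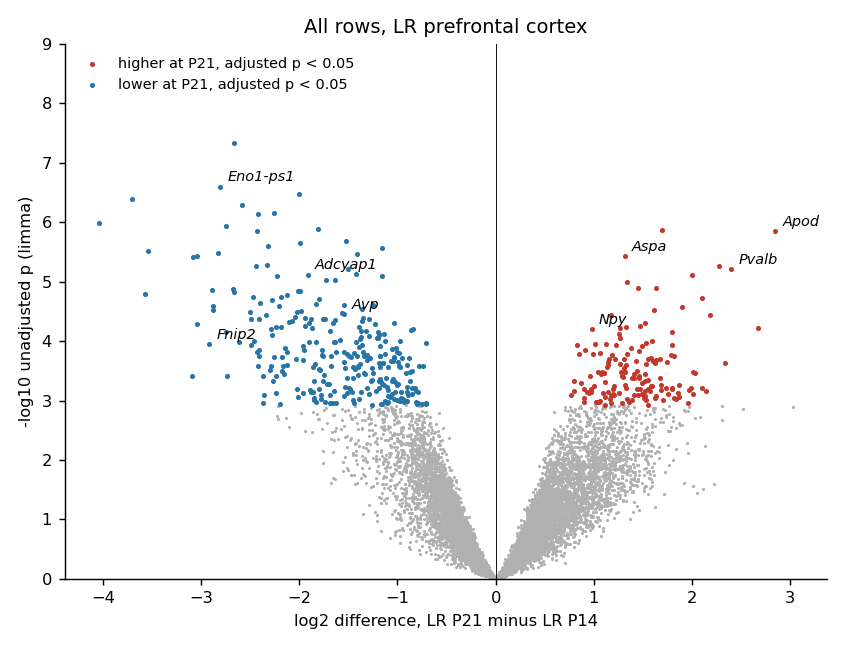
Each point is 1 of 18564 rows, with the log2 difference of LR P21 over LR P14 on the x axis and minus log10 of the unadjusted limma p on the y axis. Red points are the 154 rows called higher and blue points the 287 called lower at P21. The blue points reach larger differences than the red ones, while Apod leads the named genes on the right.

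Array number went with age in these samples. The column headers number the LR P21 arrays 6 to 10 and the LR P14 arrays 16 to 20, and the sources used here do not say what the number marks. In LR, age and array number cannot be told apart. The HR P14 arrays are numbered 11 to 15, between these stretches. Divided after array 12, on the assumption that arrays were run in sets of 12, which no header states, HR P14 arrays 11 and 12 differed from HR P14 arrays 13 to 15, of the same line and age, in 1837 rows (9.9%, limma adjusted p under 0.05), 5.38% of rows being higher and 4.52% lower. Across the 18564 rows that array difference had a Pearson correlation of 0.70 with the LR P21 minus P14 difference, although the comparisons share no array (a description across rows, which are not independent). Of the 154 rows called higher in LR P21, 148 were also higher in HR P14 arrays 11 and 12 than in arrays 13 to 15, and of the 287 called lower, 279 were also lower there. HR P21 minus all HR P14 arrays had the sign of the LR difference in 129 of the 154 rows and in 254 of the 287. Arrays 13 to 15 enter that step, so age and array number are mixed in it too. Set against HR P14 arrays 11 and 12 only, HR P21 was higher in 60 of the 154 rows and lower in 114 of the 287. Arrays 11 and 12 enter this difference and the difference among HR P14 arrays with opposite signs. High values in these arrays raise the latter and lower the former, so here and below they are not separate evidence. For the called genes described below, the HR P14 array difference (arrays 11 and 12 minus arrays 13 to 15) or its range stands beside the LR values, and for some of them also the HR P21 difference from arrays 11 and 12. The HR P14 array difference also goes with the sample code in the headers. Arrays 13 and 15 share the first part of their code, and arrays 11 and 12 share theirs with no other array of the group. What the code marks is not stated, so array number and sample code cannot be told apart there. The part of array number in the LR differences was not tested beyond these values.

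**Figure D2:**
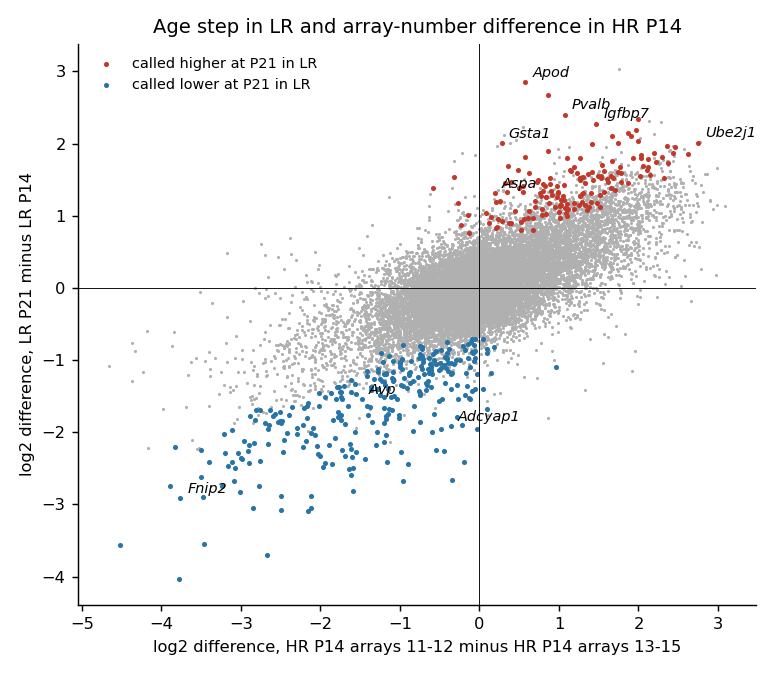
Each point is 1 of 18564 rows, with the log2 difference of HR P14 arrays 11 and 12 over HR P14 arrays 13 to 15 on the x axis and that of LR P21 over LR P14 on the y axis. Red and blue points are the rows called higher and lower at P21 in LR. Ube2j1 and Fnip2 lie far out on both axes, while Apod, Aspa, Gsta1 and Adcyap1 lie far out on the y axis and near 0 on the x axis.

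A score on the first component of within-group variation among the other 20 prefrontal arrays also separated the ages. This component held 31.2% of that variation. The LR P21 arrays scored 12.1, 18.1, 18.9, 46.4 and 46.4, against -3.43, -16.6, -58.0, 7.42 and -34.8 in the LR P14 arrays, without overlap. The difference of 49.4 had a two-sided p of 0.0079 in an exact permutation test over 252 assignments, which is the smallest p they allow. With the score as a covariate 93 rows (0.501%) were called, 14 higher (0.0754%) and 79 lower (0.426%) in LR P21.

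**Figure D3:**
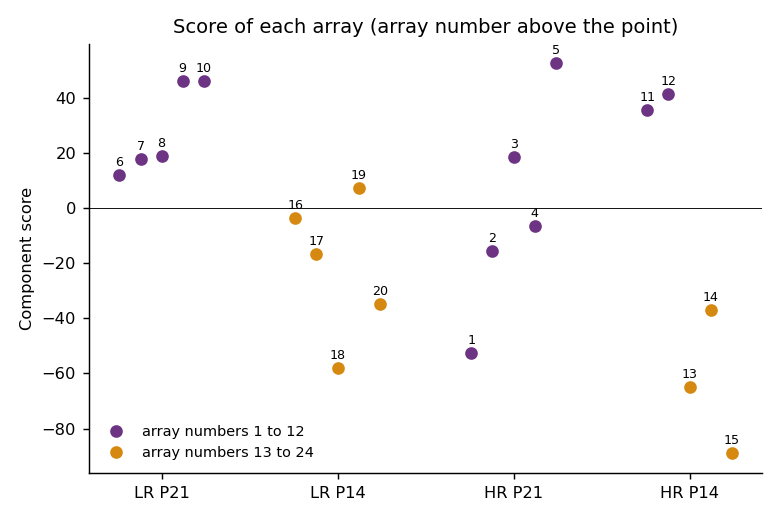
Points are single arrays, labelled by array number, with the component score (no unit) on the y axis and the groups LR P21, LR P14, HR P21 and HR P14 along the x axis. All 5 LR P21 arrays lie above all 5 LR P14 arrays, and HR P14 arrays 11 and 12 lie near the top while HR P14 arrays 13 to 15 lie low. HR P21 arrays, numbered 1 to 5, spread from -52.5 to 52.7. The HR arrays are among those that defined the component, and array 11 set its sign, so their places are partly built in.

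Of the list of myelin and oligodendrocyte genes 27 members were measured. Of these 2 rose, 0 fell and 25 did not pass (0.83% of all rows rose and 1.55% fell), with a median difference of 0.18 against 0.03 over all rows. Apod, which codes for apolipoprotein D, a lipid carrier made by oligodendrocytes and astrocytes, led the called rows in the upward direction. Its intensity was 593, 476, 848, 1166 and 1014 in the LR P21 arrays, against 168, 91.9, 67.8, 104 and 135 in the LR P14 arrays. The lowest P21 array lay well above the highest P14 array, and the difference was 2.85 ± 0.48 on the log2 scale (SE, limma adjusted p = 0.002), a 7.2-fold higher level. In HR the gene averaged 486 ± 267 in HR P21 and 154 ± 90.8 in HR P14 (SD, n = 5 each), a difference of 1.61 ± 0.48 (SE, limma adjusted p = 0.19). For Apod the HR P14 array difference was 0.57 ± 0.68 (SE), and HR P21 lay above HR P14 arrays 11 and 12 by 1.27 ± 0.62 (SE).

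Aspa, the aspartoacylase with which oligodendrocytes split N-acetylaspartate, rose from a low level. Its intensity was 133, 136, 112, 188 and 162 in the LR P21 arrays, against 76.2, 54.7, 62.4, 51.5 and 48.2 in the LR P14 arrays. The ages did not overlap, although every P14 array lay near or below the median row (74.0) and the size of the difference, 1.31 ± 0.23 on the log2 scale (SE, limma adjusted p = 0.0031), is uncertain for that reason. The HR P14 array difference was 0.19 ± 0.34 (SE). With the component score in the fit Apod and Aspa had differences of 2.43 (limma adjusted p = 0.012) and 1.09 (limma adjusted p = 0.026), and both stayed called.

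Genes of the structural myelin proteins lay on either side of the threshold or missed it. Mobp, a myelin-associated basic protein, was measured by 2 rows that differed in their call. The brighter row averaged 9391 ± 3686 in LR P21 and 2446 ± 1160.5 in LR P14 (SD, n = 5 each), a difference of 1.97 ± 0.55 on the log2 scale (SE, limma adjusted p = 0.051), and the second row had a difference of 2.67 ± 0.57 on the log2 scale (SE, limma adjusted p = 0.012). For Mobp the HR P14 array difference was 0.22 ± 0.80 (SE) in the brighter row and 0.86 in the second row of Mobp. Mbp, myelin basic protein, had 4 rows, none called; its brightest row averaged 822 ± 406 in LR P21 and 337 ± 108 in LR P14 (SD, n = 5 each), with a difference of 1.23 ± 0.43 on the log2 scale (SE, limma adjusted p = 0.11) and overlapping ages. In HR the same row averaged 444 ± 275 in HR P21 and 425 ± 198 in HR P14 (SD, n = 5 each), and the difference between the lines' steps was 1.25 ± 0.60 (SE, limma unadjusted p = 0.046, adjusted p = 0.72). For Mbp the HR P14 array difference was 1.12, and HR P21 minus HR P14 arrays 11 and 12 was -0.70. Mog, Mag, Cnp and Cldn11, further myelin genes, had differences of 0.60, 0.18, -0.55 and 0.78, none called. The summed intensity of the 27 measured members spanned 16508 to 28864 in the LR P21 arrays, against 5203 to 10310 in the LR P14 arrays. None of 13 oligodendrocyte precursor genes and none of 22 cholesterol synthesis genes was called (limma adjusted p under 0.05).

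Among interneuron genes, 2 of 21 measured members rose, 0 fell and 19 did not pass, with a median difference of 0.34. The list's median in the HR P14 array difference was 0.49, larger than in LR, and that for HR P21 minus HR P14 arrays 11 and 12 was -0.14. Pvalb, parvalbumin, the calcium-binding protein of fast-spiking interneurons, had an intensity of 498, 532, 513, 1950.4 and 844 in the LR P21 arrays, against 253, 177, 84.2, 151 and 95.9 in the LR P14 arrays. Array 9 lay far above the other P21 arrays, yet the lowest P21 array was still above the highest P14 array. The difference was 2.4 ± 0.44 on the log2 scale (SE, limma adjusted p = 0.0041). The LR means were 59.2 at P7, 152 at P14 and 867 at P21, and HR averaged 782 ± 454 in HR P21 and 172 ± 79.6 in HR P14 (SD, n = 5 each). The HR P14 array difference was 1.07 ± 0.61 (SE), and HR P21 lay above HR P14 arrays 11 and 12 by 1.44 ± 0.56 (SE).

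Npy codes for neuropeptide Y, a peptide co-released by many inhibitory neurons. It had an intensity of 34568, 27816, 33917, 32978 and 35741 in the LR P21 arrays, against 29127, 17414, 11403, 14342 and 15531 in the LR P14 arrays. The ages overlapped in 1 place, P14 array 16, which lay above the lowest P21 array. The difference was 0.98 ± 0.21 on the log2 scale (SE, limma adjusted p = 0.012), and the HR P14 array difference was 0.14 ± 0.31 (SE). Sst, somatostatin, averaged 18019 ± 7493 in LR P21 and 7881 ± 2809 in LR P14 (SD, n = 5 each), and Vip, vasoactive intestinal peptide, averaged 233 ± 66.9 in LR P21 and 105 ± 47.2 in LR P14 (SD, n = 5 each); their differences of 1.16 ± 0.46 and 1.2 ± 0.38 (SE) were not called (limma adjusted p = 0.15 and 0.077), and their HR P14 array differences were 0.72 and 1.85. Gad1, the main enzyme of GABA synthesis, lay near background at both ages, with means of 63.4 in LR P21 and 54.2 in LR P14. In the list of GABA signalling and chloride transport 0 of 16 members were called. Of 31 glutamate receptor and transport genes 0 were called, and of 22 synaptic vesicle genes 0 were. With the 10 LR arrays alone 2 of the 31 and 3 of the 22 were called, where 11% of all rows were (limma adjusted p under 0.05).

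The sequences just upstream of the start are shown for Apod and Aspa, which carry the oligodendrocyte result, and for Pvalb and Npy, which carry the interneuron result; the 4 were picked after their values were seen. They are the 250 bases before the annotated start, 5′ to 3′ on the gene's strand, from RefSeq (GRCr8), at chr11:82935970-82936219 (plus strand), chr10:58439038-58439287 (minus strand), chr7:111666290-111666539 (minus strand) and chr4:80211861-80212110 (plus strand). Capitals mark matches on either strand to the TATA motif TATAAA, the GC box GGGCGG, the CCAAT motif and the cAMP element core TGACG, and matches to TATAAA on both strands overlap once in Aspa.
Apod: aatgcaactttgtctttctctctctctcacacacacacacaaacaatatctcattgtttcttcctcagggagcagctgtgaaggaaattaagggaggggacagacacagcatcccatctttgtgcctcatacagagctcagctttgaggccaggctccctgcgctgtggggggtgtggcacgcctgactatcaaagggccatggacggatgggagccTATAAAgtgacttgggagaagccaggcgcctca
Aspa: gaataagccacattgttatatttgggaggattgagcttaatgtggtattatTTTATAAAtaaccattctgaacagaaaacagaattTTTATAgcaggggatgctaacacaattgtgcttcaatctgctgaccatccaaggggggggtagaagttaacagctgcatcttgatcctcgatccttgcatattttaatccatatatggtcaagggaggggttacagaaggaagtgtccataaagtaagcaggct
Pvalb: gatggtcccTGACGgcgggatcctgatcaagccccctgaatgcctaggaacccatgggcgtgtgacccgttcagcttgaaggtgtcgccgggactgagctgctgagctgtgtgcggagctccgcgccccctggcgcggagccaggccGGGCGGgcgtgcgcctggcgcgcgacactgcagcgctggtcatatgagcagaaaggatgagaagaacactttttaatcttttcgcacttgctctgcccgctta
Npy: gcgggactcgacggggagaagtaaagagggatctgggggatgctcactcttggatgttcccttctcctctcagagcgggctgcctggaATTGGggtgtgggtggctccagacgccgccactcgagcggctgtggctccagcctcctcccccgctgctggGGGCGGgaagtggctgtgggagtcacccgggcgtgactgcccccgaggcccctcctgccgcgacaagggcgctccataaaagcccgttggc
Apod and Aspa held TATAAA, Pvalb held GGGCGG and TGACG, and Npy held GGGCGG and CCAAT. Over all RefSeq promoters in the table, 12.9% held TATAAA, 30.5% GGGCGG, 34.0% CCAAT and 18.2% TGACG within the same length. Of the genes with a symbol called higher in LR P21, 117 of 137 had a promoter in the table, of which 10.3% held TATAAA, 53.8% GGGCGG, 37.6% CCAAT and 29.1% TGACG. Of those called lower 78 of 118 had one, with 23.1%, 38.5%, 34.6% and 24.4% in the same order. These shares describe letters in a window and not sites of binding.

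**Figure D4:**
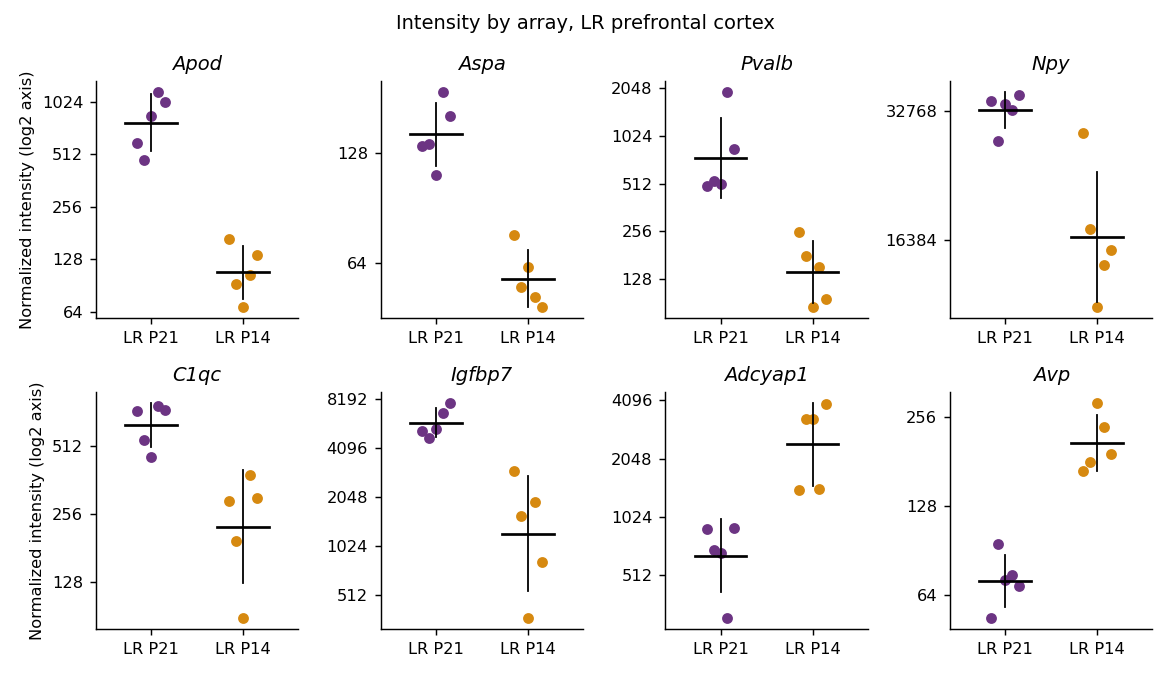
Points are single arrays, with normalized intensity on a log2 axis that differs between panels. Horizontal lines are the means of the log2 values and vertical lines 1 SD to each side (n = 5). LR P21 is on the left and LR P14 on the right of each panel. The ages do not overlap except in Npy, and Adcyap1 and Avp are the genes shown that are lower at P21.

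Of 21 astrocyte genes 2 rose, 0 fell and 19 did not pass, with a median of 0.42. With the 10 LR arrays alone 7 of the 21 were called higher, where 6.16% of all rows were. Ntsr2, a neurotensin receptor made mainly by astrocytes, had an intensity of 1988, 1966, 1343, 1749 and 2362 in the LR P21 arrays, against 1193, 495, 241, 548 and 385 in the LR P14 arrays. Every P21 array lay above every P14 array, and the difference was 1.9 ± 0.38 on the log2 scale (SE, limma adjusted p = 0.0087). Clu, clusterin, a secreted chaperone abundant in astrocytes, ranged over 1824 to 2657 in LR P21 and 396 to 1382 in LR P14, a difference of 1.41 ± 0.38 on the log2 scale (SE, limma adjusted p = 0.04). The HR P14 array differences of the pair were 0.86 and 0.98, in the same direction. Apoe, the main lipid carrier of the brain, averaged 15846 in LR P21 and 5839 in LR P14, and its difference of 1.52 ± 0.68 (SE, limma adjusted p = 0.21) did not pass. Aqp4, the water channel of astrocyte endfeet, lay near the median row at both ages (71.3 in LR P21 and 82.3 in LR P14).

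Of 16 microglia and complement genes 2 rose, 0 fell and 14 did not pass, with a median of 0.18. C1qc, a chain of the complement starter C1q, had an intensity of 728, 546, 458, 764 and 737 in the LR P21 arrays, against 293, 194, 88.8, 379 and 301 in the LR P14 arrays. The ages did not overlap, and the difference was 1.5 ± 0.38 on the log2 scale (SE, limma adjusted p = 0.032). In HR it averaged 244 ± 111 in HR P21 and 245 ± 140.5 in HR P14 (SD, n = 5 each), and the lines' steps differed by 1.39 ± 0.54 (SE, limma unadjusted p = 0.016, adjusted p = 0.67), which was not called. Ctss, cathepsin S, a lysosomal protease of microglia, ranged over 855 to 1944 in LR P21 and 140.2 to 678 in LR P14 and had a difference of 1.99 ± 0.52 on the log2 scale (SE, limma adjusted p = 0.036). Its HR P14 array difference was 1.42, and that of C1qc was 1.26 on the log2 scale, in the same direction. C1qb and C1qa, the other C1q chains, had differences of 1.45 ± 0.50 (SE, limma adjusted p = 0.1) and 0.65 ± 0.37 (SE, limma adjusted p = 0.35). Csf1r and Cx3cr1, which define microglia, averaged 85.9 and 115 in LR P21, against 85.8 and 102 in LR P14.

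Kcna1, a potassium channel subunit found beside the nodes of myelinated axons, averaged 2101 ± 469.9 in LR P21 and 876 ± 458 in LR P14 (SD, n = 5 each), with overlapping ages and a difference of 1.38 ± 0.38 on the log2 scale (SE, limma adjusted p = 0.045); it was 1 of 26 channel genes. Timp2, an inhibitor of matrix proteases, averaged 2662 ± 481 in LR P21 and 1331 ± 427 in LR P14 (SD, n = 5 each), a difference of 1.06 ± 0.29 on the log2 scale (SE, limma adjusted p = 0.047); it was 1 of 18 perineuronal net and matrix genes. Acan and Hapln1, which build the perineuronal net, had differences of -0.33 and -0.45 and were not called, and Acan lay near background. Dclk1, a doublecortin-like kinase of growing and mature neurons, averaged 222 ± 55.2 in LR P21 and 90.9 ± 27.1 in LR P14 (SD, n = 5 each), a difference of 1.31 ± 0.32 on the log2 scale (SE, limma adjusted p = 0.023), and was the 1 of 28 immature neuron genes that passed. The neighbours Dcx, Sox11, Sox4 and Tubb3, which mark young neurons, had differences of -0.23, -0.82, -0.14 and -0.43, none called. In HR P14, arrays 11 and 12 exceeded arrays 13 to 15 by 1.0 for Timp2, 0.76 for Dclk1 and 0.50 for Kcna1.

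The remaining genes of the upper 15 belong to many parts of the cell. Igfbp7, a secreted binding protein of insulin-like growth factors, had an intensity of 5202, 4757, 5399, 6759 and 7836 in the LR P21 arrays, against 2967, 1562, 369, 1924 and 815 in the LR P14 arrays, a difference of 2.27 ± 0.41 on the log2 scale (SE, limma adjusted p = 0.0039). Gsta1, a glutathione transferase, had an intensity of 1014, 947, 737, 1682 and 963 in the LR P21 arrays, against 612, 165, 196, 321 and 173 in the LR P14 arrays, a difference of 2.01 ± 0.37 on the log2 scale (SE, limma adjusted p = 0.0046). Both were higher in every P21 array than in any P14 array. The HR P14 array difference was 1.47 ± 0.54 (SE) for Igfbp7 and 0.28 ± 0.54 (SE) for Gsta1. With the component score in the fit both stayed called, with differences of 1.64 (limma adjusted p = 0.022) for Igfbp7 and 1.76 (limma adjusted p = 0.026) for Gsta1. Rasl10a, a small GTPase of the Ras group, rose by 2.19 ± 0.45 on the log2 scale (SE, limma adjusted p = 0.01), with an HR P14 array difference of 1.97. It too stayed called with the score, at 1.34 (limma adjusted p = 0.041).

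A set of 8 genes for basic cell machinery completed these 15. Emc4, which helps insert membrane proteins, had 2 rows, both called, and the brighter averaged 1479 ± 583 in LR P21 and 398 ± 253 in LR P14 (SD, n = 5 each). Tomm20 and Timm9, which import proteins into mitochondria, had differences of 2.1 and 1.96. Sat1, which acetylates polyamines, had one of 2.04, Ube2j1, a ubiquitin-conjugating enzyme, of 2.01, and Tsen15, a subunit of the tRNA splicing endonuclease, of 2.01. Brk1, a subunit of the actin-nucleating WAVE complex, and Psmb4, of the proteasome, had differences of 1.97 and 1.87. With the brighter row used for Emc4 and Ube2j1, all 8 had no overlap between the ages, with limma adjusted p-values between 0.025 and 0.048. All 8 were higher in HR P14 arrays 11 and 12 than in arrays 13 to 15, by 1.74 (Tsen15) to 2.75 (Ube2j1) on the log2 scale. The second row of Ube2j1 was not called and overlapped between the ages, with a difference of 0.84 ± 0.36 on the log2 scale (SE, limma adjusted p = 0.19). Against HR P14 arrays 11 and 12, HR P21 was lower for Ube2j1, Brk1, Timm9 and Psmb4 (-1.2, -1.32, -0.64 and -0.53). In LR, the P7 mean of Psmb4 (827) lay between its P21 and P14 means, as did that of Emc4 (1066).

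Lists of energy metabolism and ribosomal proteins had medians above that of all rows, with 1 call. Of 52 oxidative phosphorylation genes 1 rose, 0 fell and 51 did not pass, with a median of 0.37. The 1 was Ndufv2, a subunit of respiratory complex I, which averaged 651 ± 149 in LR P21 and 209 ± 85.3 in LR P14 (SD, n = 5 each), a difference of 1.74 ± 0.45 on the log2 scale (SE, limma adjusted p = 0.036). Its HR P14 array difference, 2.38 ± 0.50 (SE), was larger than the LR difference, and HR P21 minus HR P14 arrays 11 and 12 was -0.15. None of 38 glycolysis and tricarboxylic acid cycle genes was called in either direction, with a median of 0.57, and none of 59 ribosomal protein genes, with a median of 0.31 (limma adjusted p under 0.05). In the 10 LR arrays alone, where 6.16% of all rows were called higher, 12, 9 and 9 members of these 3 lists were called, all higher. Their medians in the HR P14 array difference were 0.77, 0.88 and 0.71, each larger than in LR, and their medians for HR P21 minus HR P14 arrays 11 and 12 were -0.10, 0.02 and -0.43.

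**Figure D5:**
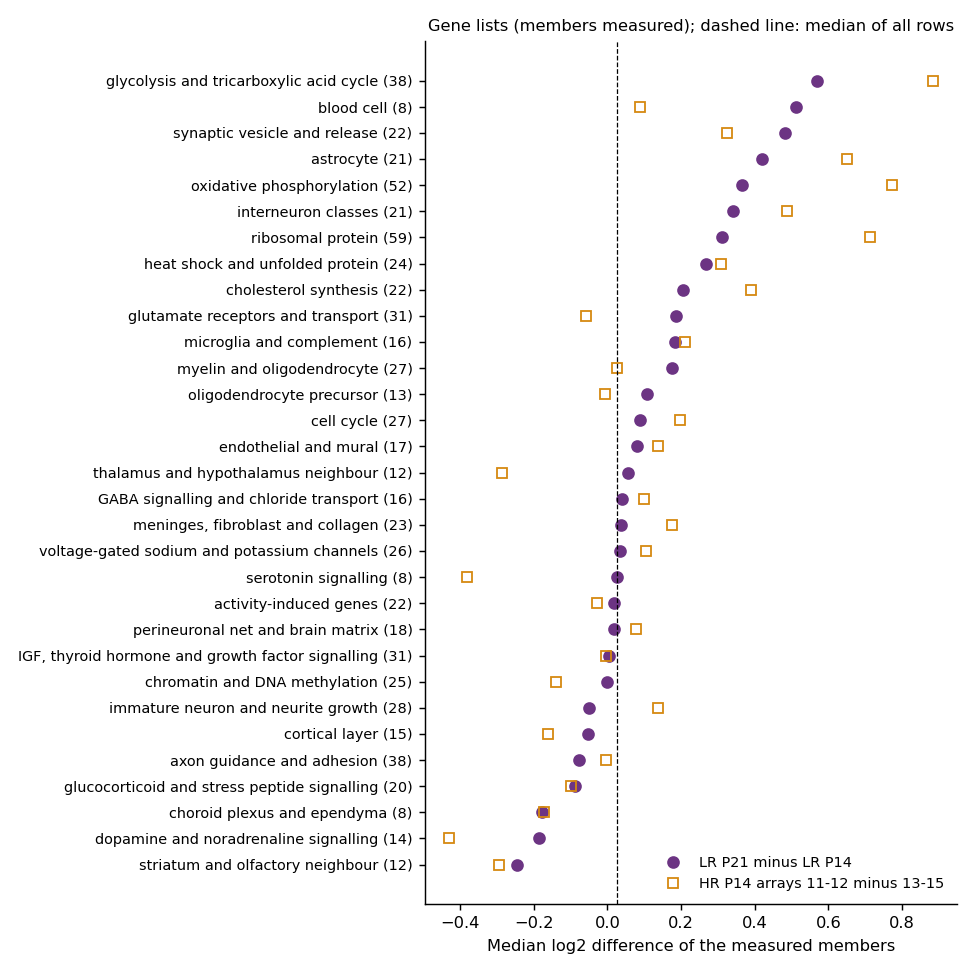
Each row is 1 of 31 gene lists, with its measured members in brackets, and the x axis is the median log2 difference over those members. Filled circles are LR P21 minus LR P14 and open squares HR P14 arrays 11 and 12 minus arrays 13 to 15; the dashed line is the LR median of all rows (0.03). Among others, the myelin, oligodendrocyte precursor, glutamate and blood cell lists have higher circles than squares. The astrocyte, interneuron, energy and ribosome lists are among those with higher squares.

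Of the 287 rows called lower, 244 carried a predicted (XM) accession (85.0%, against 62.8% of all rows), and 164 had no protein-coding or pseudogene entry in the reference (57.1%, against 22.4% of all rows). Of the 154 rows called higher 142 were protein-coding (92.2%, against 75.9% of all rows). Pseudogenes gave 13 rows called lower (4.19%, against 1.55% of all rows) and 0 called higher, out of 310. The HR P14 array difference, within 1 age, had a similar make-up of rows called lower, apart from pseudogenes. Of its 839 rows called lower 687 carried an XM accession and 441 had no such entry. Of its 998 rows called higher 864 were protein-coding. Pseudogenes gave 10 of its rows called lower and 17 called higher. The largest fall of a gene with a symbol that is not provisional was that of Rps10-ps22, named after a ribosomal protein gene, with an intensity of 799, 942, 664, 143 and 359.8 in the LR P21 arrays, against 2417, 4254, 6629, 2556 and 5652 in the LR P14 arrays, and it fell by 3.04 ± 0.65 on the log2 scale (SE, limma adjusted p = 0.011). Eno1-ps1, named as an enolase pseudogene, had an intensity of 87.0, 161, 137, 55.7 and 78.8 in the LR P21 arrays, against 384, 909.8, 759, 471 and 1142 in the LR P14 arrays, and it fell by 2.81 ± 0.43 on the log2 scale (SE, limma adjusted p = 0.0019). All P21 arrays lay below all P14 arrays in both. Cyc1-ps1, Atp5mc1l2, Rpl37al3, Rpl11-ps10 and Aldoa-ps9, also named as copies of genes for respiration, ribosomes or glycolysis, fell too, with differences of -2.88, -2.67, -2.44, -2.37 and -2.12. Probes of such copies can also bind transcripts of their parent genes, so these rows are uncertain. Aldoa itself, the parent aldolase gene, had a difference of 1.81 ± 0.66 (SE, limma adjusted p = 0.12), in the other direction.

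Of these 7 copies the reference enters Rps10-ps22, Atp5mc1l2 and Rpl37al3 as protein-coding and the rest as pseudogenes. All 7 of these copies were also lower in HR P14 arrays 11 and 12 than in arrays 13 to 15. Their HR P14 array differences were -2.12 for Rps10-ps22, -1.59 for Eno1-ps1, -2.49 for Cyc1-ps1, -1.86 for Rpl37al3, -1.44 for Rpl11-ps10 and -2.18 for Aldoa-ps9, the last larger than in LR. Of the 7, Atp5mc1l2 had the smallest HR P14 array difference. Its intensity was 404, 309.9, 265, 172 and 313 in the LR P21 arrays, against 2327, 1867, 1504, 1795 and 1596 in the LR P14 arrays. The highest P21 array lay far below the lowest P14 array. Between the HR P14 arrays the difference was -0.96 ± 0.73 (SE). In HR it averaged 323 ± 176 in HR P21 and 1229.9 ± 504 in HR P14 (SD, n = 5 each), a difference of -2.11 ± 0.52 (SE, limma adjusted p = 0.11).

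Further genes were among the 15 largest falls of genes with a symbol that is not provisional. Fnip2, a partner of folliculin in nutrient signalling, had an intensity of 219, 155, 98.9, 43.2 and 65.4 in the LR P21 arrays, against 562, 1035, 1114, 452 and 796 in the LR P14 arrays, and it fell by 2.92 ± 0.66 on the log2 scale (SE, limma adjusted p = 0.016). The ages did not overlap, but HR P14 arrays 11 and 12 lay below arrays 13 to 15 by more than the LR difference (-3.76). Eml5, a microtubule-associated protein, Rph3al, an effector of Rab proteins in exocytosis, and Tvp23b, a Golgi membrane protein, had differences of -2.18, -2.17 and -2.16, and Rph3al overlapped between the ages. Their HR P14 array differences were -2.89, -1.89 and -1.63, that of Eml5 being larger than its LR difference. V1ra14, Krtap2-4l1 and Ralgdsl8 were also among the 15, with differences of -2.37, -2.47 and -2.32. In the HR P14 array difference they had -2.99, -3.16 and -2.0, so that V1ra14 and Krtap2-4l1 differed more there than between the LR ages. V1ra14 belongs to the vomeronasal receptors and has no gene type in the reference. Of 386 rows named as olfactory, vomeronasal or trace amine receptors 11 were called lower (2.85%, against 1.55% of all rows) and 0 higher. In the HR P14 array difference 32 of the 386 rows were called lower and 1 higher, against 4.52% and 5.38% of all rows.

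Neuropeptide genes fell as well as rose. Avp, vasopressin, was the 1 of 20 stress peptide and glucocorticoid genes called, and the 1 of 12 thalamus and hypothalamus genes. Its intensity was 53.7, 95.2, 72.0, 74.9 and 68.7 in the LR P21 arrays, against 168, 181, 287, 237 and 192 in the LR P14 arrays. The ages did not overlap, the P21 values lay at about the level of the median row, and it fell by 1.54 ± 0.32 on the log2 scale (SE, limma adjusted p = 0.01). Its HR P14 array difference was -1.48 ± 0.38 (SE), about the size of the LR difference. Crh, corticotropin-releasing hormone, had a difference of -0.08 and was not called. Adcyap1, which codes for the peptide PACAP, is described here although it lies outside the rule for named genes and was chosen after its values were seen. Its intensity was 885, 691, 664, 307 and 900.5 in the LR P21 arrays, against 1413, 3261, 3293, 1427 and 3911 in the LR P14 arrays. The highest P21 array lay below the lowest P14 array, and it fell by 1.91 ± 0.36 on the log2 scale (SE, limma adjusted p = 0.0046). In HR the gene averaged 622 ± 301 in HR P21 and 1399 ± 421 in HR P14 (SD, n = 5 each), a difference of -1.27 ± 0.36 (SE, limma adjusted p = 0.16), and its HR P14 array difference was -0.36 ± 0.51 (SE).

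Of the lists that mark other tissue or brain regions, those of meninges and of thalamus and hypothalamus held 1 called gene each, Ptgds and Avp. Of the cortical projection neuron markers, Slc17a7, Neurod6 and Camk2a averaged 114, 146 and 110.5 in LR P21, against 63.6, 78.3 and 124 in LR P14, so these arrays set the labelled region apart only weakly. The measured amygdala markers Rspo2, Prlr and Cdh9 averaged 62.6, 75.7 and 60.2 in LR P21, against 67.6, 103 and 62.9 in LR P14. None of 8 blood cell genes was called, but their summed intensity spanned 87024 to 92370 in LR P21 and 38878 to 103172 in LR P14. Ptgds, a prostaglandin synthase abundant in the meninges, was the 1 of 23 meningeal and collagen genes called, averaging 16832 ± 6569.5 in LR P21 and 8304 ± 4939.8 in LR P14 (SD, n = 5 each), with overlapping ages and a difference of 1.12 ± 0.31 on the log2 scale (SE, limma adjusted p = 0.049). Its HR P14 array difference was 0.95, and HR P21 lay below HR P14 arrays 11 and 12 (-1.19). The summed intensity of that list spanned 14643 to 35239 in LR P21 and 7026 to 20386 in LR P14. The part of meningeal tissue in the results was not tested. Ttr, made by the choroid plexus, averaged 1347 ± 982 in LR P21 and 818 ± 623 in LR P14 (SD, n = 5 each), and none of 8 choroid plexus and ependyma genes was called.

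Of 60 genes chosen for their place in cortical maturation 47 were measured, and 3 of these were called, Pvalb, Npy and Kcna1. A further 12 of the 47, among them Gad1 and Fkbp5, had geometric means below the median row at both ages, close to background. Bdnf, the neurotrophin, averaged 149 ± 40.7 in LR P21 and 100.1 ± 14.9 in LR P14 (SD, n = 5 each) and had no overlap between the ages, yet its difference of 0.55 ± 0.21 on the log2 scale (SE, limma adjusted p = 0.15) did not pass. Cldn5, of the endothelial barrier, averaged 725 ± 367 in LR P21 and 274 ± 161 in LR P14 (SD, n = 5 each), a difference of 1.46 ± 0.77 on the log2 scale (SE, limma adjusted p = 0.3). Neurod6 and Bcan had differences of 0.86 and 1.22, with overlapping ages.

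No row's step was shown to differ between the lines. The test of the LR step minus the HR step called 0 rows (0%) with limma, with 1262 rows at an unadjusted p under 0.05. The HR step itself had 0 calls (0%), with 1825 rows at an unadjusted p under 0.05. The genes with the smallest p for a higher step in LR were Zfp771, a zinc finger protein, at 1.57 ± 0.30 (SE, limma unadjusted p = 9.9e-06, adjusted p = 0.18), and Ppp1r15a, a stress-induced phosphatase subunit, at 1.63 ± 0.36 (SE, limma unadjusted p = 8.4e-05, adjusted p = 0.29). Zfp771 averaged 323 ± 60.9 in LR P21 and 170.0 ± 22.4 in LR P14 (SD, n = 5 each), against 174 ± 40.8 in HR P21 and 276 ± 66.8 in HR P14 (SD, n = 5 each). Ppp1r15a averaged 142 ± 34.3 in LR P21 and 55.4 ± 11.5 in LR P14 (SD, n = 5 each), against 76.1 ± 7.89 in HR P21 and 97.2 ± 35.4 in HR P14 (SD, n = 5 each). Their HR P14 array differences were 0.52 for Zfp771 and 0.90 for Ppp1r15a, and that of Tnfaip8, which was called lower in LR P21 (-1.23), was -0.77. Vcf1 was next, with 1.45 ± 0.32 (SE, limma unadjusted p = 9.4e-05, adjusted p = 0.29). In the other direction Gpr62, Or2n1l and Tnfaip8 had differences between the steps of -1.73 ± 0.40 (SE, limma unadjusted p = 0.00013, adjusted p = 0.3), -1.13 ± 0.26 (SE, limma unadjusted p = 0.00015, adjusted p = 0.31) and -1.56 ± 0.37 (SE, limma unadjusted p = 0.00021, adjusted p = 0.35).

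The earlier step, LR P14 minus LR P7, shares the LR P14 arrays, and its values are given only beside those of the later step. It had 223 called rows (1.2%), 109 higher (0.587%) and 114 lower (0.614%). The LR P7 arrays are numbered 26 to 30, so age and array number cannot be told apart in this step either. Apod and Aspa had earlier differences of 0.08 ± 0.48 (SE, limma adjusted p = 0.96) and 0.07 ± 0.23 (SE, limma adjusted p = 0.92), neither called, with LR means of 133 at P7, 113 at P14 and 819 at P21 for Apod. Sst had an earlier difference of 1.76 ± 0.46 (SE, limma adjusted p = 0.049), which was called, and LR means of 2290.4 at P7, 7881 at P14 and 18019 at P21. Mobp averaged 996 at P7, 2446 at P14 and 9391 at P21, with an earlier difference of 1.98 ± 0.55 (SE, limma adjusted p = 0.067). Ppp1r15a averaged 113 at P7, 55.4 at P14, near background, and 142 at P21. Its earlier difference was -0.99 ± 0.25 (SE, limma adjusted p = 0.047). Its later difference was 1.34 ± 0.25 on the log2 scale (SE, limma adjusted p = 0.0051). Low values in the shared LR P14 arrays lower the former and raise the latter, so they are not separate evidence.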

How the data were processed

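The authors deposited a table of normalized intensity for the prefrontal cortex, on a linear scale, and the submitters' processing notes name RMA (background correction, normalization between arrays and probe summary), with no version. Headers name each array by line, region and age and add an array number and sample code; 0 per-sample columns were left unused, and the number of arrays limits the precision. log2 was taken of every deposited intensity, 1 control row was left out, and the 18564 remaining rows were named through RefSeq (GRCr8) gene IDs or accessions (14334), the file's symbol (3363) or not at all (867). The 30 prefrontal arrays were fitted with limma 3.58.1 (R 4.3.3), with 1 mean per line and age (6 groups). Adjusted p-values are Benjamini-Hochberg over all rows, called under 0.05, for LR P21 minus P14, the LR step minus the HR step, and LR P14 minus P7. The fit was tested on simulated data. Tables and figures used Python 3.11.15, pandas 2.3.3 and matplotlib 3.10.9.

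Members, gene lists, the 60 chosen genes and the tests were set with earlier results of these data known. Named genes carry a symbol that is not provisional: the 15 largest called differences in each direction, up to 6 called members per list, every measured chosen gene, and the 3 smallest p in each direction for the difference between lines. Of several rows the one with the highest mean was used. The difference among HR P14 arrays was fitted with that group divided at array number 12, an assumption that arrays were run in sets of 12, which no header states. The component score was the projection of each array on the first principal component of within-group deviations in the 20 prefrontal arrays outside LR P21 and LR P14. It was chosen after seeing the data.

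Labels give replicate numbers, which deposited array columns lack; the series' value table, which held the same values, gave them. Same-numbered LR samples had correlated deviations of -0.144, -0.0534, 0.142, 0.241 and -0.113, so the numbers do not pair the samples. The amygdala was not used here. A few named or listed genes enter the fits and counts and are not reported here.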

Additional observations from a re-analysis of the deposited data

Results flagged for a closer look

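Of 180 groups of 5 arrays (90 named genes at both ages), 5 held an array whose gap to its nearest neighbour passed Dixon's 95% critical value on the log2 scale, or 2.78%; chance gives about 1 in 20. Psmb4 had 1244 in LR P21 array 9, against 936 in the next array. Rpl11-ps10 had 132 in the same array, the next lowest being 384. Kcna1 had 1317 in LR P21 array 8, the next lowest being 2079. Sqle, a sterol synthesis enzyme, had 102 in LR P14 array 17, against 61.7 in the next array, and Mki67, a proliferation marker, had 116 in LR P21 array 10, against 61.3. The first 3 genes were called in the pooled fit, and Sqle and Mki67 were not.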

How the results depend on the processing

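The count of 441 rows moved with the arrays that set the spread and with the treatment of array number. It was 2034 with the 10 LR arrays alone, 2515 with the 15 LR arrays (added after seeing the data) and 1482 with array weights. It was 93 with the component score as a covariate (added after seeing the data) and 0 with array sets of 12 as a block, where 1383 rows had an unadjusted limma p under 0.05. Leaving out single LR arrays gave 103 (without array 9) to 495 (without array 16) rows. Quantile normalization (430), median centring (465), a filter at the median row (606), a robust prior with trend (464), a log2 size of at least 1 (383) and sample code prefix as a random block (437) stayed within 1.5 times. With the block, HR arrays alone set the array effect, and 11 named genes changed sign, none called there, among them Ube2j1 (-0.73), Brk1 (-0.38), Timm9 (-0.50), Psmb4 (-0.33), Ndufv2 (-0.64), Fnip2 (0.84), Krtap2-4l1 (0.70), V1ra14 (0.62), Eml5 (0.71) and Aldoa-ps9 (0.056). The other 32 called named genes kept their sign and lost the call. Sign changes of genes called neither way were not counted. With the score 13 of the 43 stayed called.

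The series' value table with the labels' replicate number as a block gave 342 rows for LR P21 minus P14, with a count of 0 for the difference between lines; without the block it gave the same 441, since it holds the same values. Every alternative run for the difference between lines called 0 rows, including the one without HR arrays of a median within-group correlation under 0.9. No LR array was under that limit, so that alternative was not run for the LR step, and a fit within 1 set of 12 array numbers was not run either, because no set held both LR ages. The count of 223 for LR P14 minus P7 became 960 with array weights, 0 with sets of 12 as a block, 130 with the replicate block and 1548 with the 15 LR arrays, and 41 (without array 18) to 308 (without array 19) with single arrays left out. The causes of these changes were not tested. Dim genes are limited by signal over background.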
